A study of Mus musculus with 21 samples.

Results

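The serpins of clade A are secreted proteins encoded side by side in a cluster on mouse chromosome 12, and their liver mRNA was followed here in 10 genes of the 46078 in the count table. The 10 genes are Serpina1a, Serpina1b, Serpina1c, Serpina1d and Serpina1e, then Serpina3k, Serpina3n, Serpina6, Serpina12 and the pseudogene Serpina4-ps1. They were found by matching the Ensembl identifiers of the table to these symbols in GENCODE M21, the annotation of mouse genome build GRCm38, and every symbol had exactly 1 identifier. The set was chosen by measured values, namely low serpin levels in livers of Cse-deficient mice fed without cysteine. The values of those livers against the 3 groups they are compared with, and the genotype by cysteine interaction, are therefore given as a description with no p-value, whereas the 5 comparisons that do not involve them were tested.

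The data were poly(A) RNA-seq counts from 21 livers in 6 groups. Mice labelled WT or KO for Cse (Cth), the enzyme that makes cysteine from cystathionine, received the control diet (CTR), the same diet with cysteine removed (noCys) or with tryptophan removed (noTrp), the other amino acids being raised in proportion. There were 3 WT CTR, 4 KO CTR, 4 WT noCys, 3 KO noCys, 2 WT noTrp and 5 KO noTrp libraries, from mice that were at least 9 weeks old when the diets began. Livers were taken after 2 days on these diets, from male, calorie-restricted mice. The study's text calls the comparison animals Cse heterozygous whereas the labels call them WT, the name kept here. The labels give the KO line a mixed 129/C57BL/6 background, and the strain origin of the serpin cluster in each animal was not tested.

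Serpins inhibit proteases by presenting a loop that the protease cuts, after which the serpin changes shape and traps the enzyme. Humans carry 1 gene for α1-antitrypsin, the main plasma inhibitor of neutrophil elastase, and the mouse cluster holds several closely related copies of it, the Serpina1 genes. Not every clade A serpin inhibits a protease: Serpina6 encodes corticosteroid-binding globulin, which carries glucocorticoids in plasma. Serpina3k and Serpina3n belong to the expanded mouse counterpart of human α1-antichymotrypsin, and Serpina3n is an acute-phase gene. Serpina12 encodes vaspin, known as an insulin-sensitising adipokine and also made in liver. Serpina4-ps1 is annotated as an unprocessed pseudogene, so its RNA is not known to give a protein.

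The 10 genes lie within chr12:103646630-104414329 (GRCm38). In order along the chromosome they were Serpina6 (chr12:103646630-103657212), Serpina1b (chr12:103728156-103830373), Serpina1d (chr12:103763594-103773592), Serpina1a (chr12:103853589-103863562), Serpina1c (chr12:103894926-103904887), Serpina1e (chr12:103946931-103958975) and Serpina12 (chr12:104028769-104044443), all on the minus strand. Serpina4-ps1 (chr12:104080649-104086724), Serpina3k (chr12:104338486-104346144) and Serpina3n (chr12:104406729-104414329) followed on the plus strand. The annotated span of Serpina1b contains Serpina1d and the pseudogenes Gm17042, Gm17043 and Gm8893 without sharing an exon base with any of them. Serpina1c shares 429 of its 1361 exon bases with the antisense transcript B430119L08Rik, and Serpina3k shares 60 of 2057 with Serpina3m.

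RefSeq promoter sequence (GRCm38.p6) was at hand for 7 of the 10 genes; Serpina3k, Serpina6 and Serpina4-ps1 had none. The copies of the α1-antitrypsin gene are shown because their promoters are nearly the same while their mRNA levels differed widely between livers. Each of the 5 windows has 106 bases, aligned on the letters GTTAAT, a motif that all 5 share, which is set in capitals. The last sequence gives the 120 bases before the RefSeq start of Serpina12, in which no motif searched for was found.
Serpina1a promoter (chr12:103863625-103863730, minus strand): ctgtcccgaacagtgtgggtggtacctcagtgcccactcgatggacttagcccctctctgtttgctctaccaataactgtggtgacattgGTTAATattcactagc
Serpina1b promoter (chr12:103738200-103738305, minus strand): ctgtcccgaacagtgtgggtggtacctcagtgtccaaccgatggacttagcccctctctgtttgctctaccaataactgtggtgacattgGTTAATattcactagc
Serpina1c promoter (chr12:103904962-103905067, minus strand): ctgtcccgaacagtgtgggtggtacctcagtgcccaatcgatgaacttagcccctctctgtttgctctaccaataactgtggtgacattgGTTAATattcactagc
Serpina1d promoter (chr12:103773634-103773739, minus strand): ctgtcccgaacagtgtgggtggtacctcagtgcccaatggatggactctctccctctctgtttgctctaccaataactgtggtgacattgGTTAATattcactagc
Serpina1e promoter (chr12:103956960-103957065, minus strand): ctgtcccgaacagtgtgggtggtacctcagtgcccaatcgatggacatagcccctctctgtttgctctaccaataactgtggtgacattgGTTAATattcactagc
Serpina12 promoter (chr12:104044444-104044563, minus strand): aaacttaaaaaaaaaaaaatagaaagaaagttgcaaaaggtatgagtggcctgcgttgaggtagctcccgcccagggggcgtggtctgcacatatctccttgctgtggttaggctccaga
Of the 106 positions, 96 were identical in all 5 copies, and any 2 copies differed at 2 to 7 positions. The first base of GTTAAT lay 21, 26, 27, 16 and 78 bases before the RefSeq start of Serpina1a, Serpina1b, Serpina1c, Serpina1d and Serpina1e, respectively. These starts differ from the ends of the GENCODE spans given above, and the windows of Serpina1b and Serpina1e lie inside those spans. On either strand, GTTAAT occurred in 6.43% of the 32851 mouse promoter windows of 250 bases before the start. Neither TTCNNNGAA, a STAT-type palindrome found in 7.02% of the windows, nor TGATGNAA, the core of ATF4-type composite elements found in 3.45%, occurred in the 250 bases before the start of any of the 7 genes; Serpina3n and Serpina12 had none of the 3 motifs. No motif searched overlapped another in these windows, and a match of letters describes the sequence and not binding.

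Library totals ranged from 8889951 to 27230852 assigned counts, and the 10 genes together held 1.15% to 2.73% of them. Cth mRNA was between 108 and 452 CPM (a gene's counts per 1000000 counts of the TMM-scaled library) in the WT libraries and between 6.34 and 14.99 in the KO libraries, so all 21 labels matched their genotype. The 8 hepatocyte markers exceeded 1 CPM in every library, and their summed level was 53675 to 85228 CPM in KO noCys against 75351 to 119405 in the other groups. Defining adipocyte transcripts were at or near 0 (Lep at 0 in every library, Adipoq at most 0.817 CPM, Plin1 at most 0.175 CPM), with the 7 adipocyte markers summing to 142 to 299 CPM through genes that liver also expresses. The 10 immune markers summed to 57.8 to 161 CPM, 70.03 to 84.2 of it in KO noCys, and the 5 erythroid markers to 108 to 389 CPM, 128 to 158 of it in KO noCys. Whether any of these shifts has a part in the serpin levels was not tested, and in bulk liver fewer cells and less RNA per cell cannot be told apart.

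Before any fold change, the libraries themselves were divided by Serpina1d mRNA into ranges that cut across the study's groups. In 6 livers Serpina1d was 235 to 392 CPM (KO noCys replicates 1, 3 and 4, KO CTR replicate 3, KO noTrp replicate 3 and WT noCys replicate 4). The next 6 livers lay between 822 and 1124 CPM (KO CTR replicate 2, KO noTrp replicates 2, 4 and 5, WT noCys replicate 2 and WT noTrp replicate 1), after a step of 2.097-fold. The other 9 livers lay between 1441 and 1900 CPM, after a step of 1.28-fold. That step was little wider than steps of 1.22-fold and 1.20-fold inside the lowest range. Serpina1d alone therefore set only the 6 lowest livers clearly apart. Each range held livers of both genotypes and of all 3 diets.

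Gm8893, an unprocessed pseudogene inside the Serpina1b span that was chosen after its values were seen, followed the same division in the opposite sense. It was 312 to 431 CPM in the 6 livers with the lowest Serpina1d, 136 to 266 CPM in the next 6 and 3.50 to 15.5 CPM in the remaining 9. None of these ranges overlapped, and the upper limit of Serpina1d falls where Gm8893 has a wide gap, from 15.5 to 136 CPM. How the counting split reads between Gm8893 and the Serpina1 copies was not tested. The ranges are not groups of the study, so no mean or test over them is given, and the limits were set after the values were seen. All 3 KO noCys livers lay in the lowest range of Serpina1d and none of the 3 WT CTR livers did. A low value in KO noCys can therefore not be told apart from membership of that range by comparing groups alone, and the part of this division in each result was not tested. The values of the other 3 livers in the lowest range are given with each of the 10 genes.

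**Figure D1:**
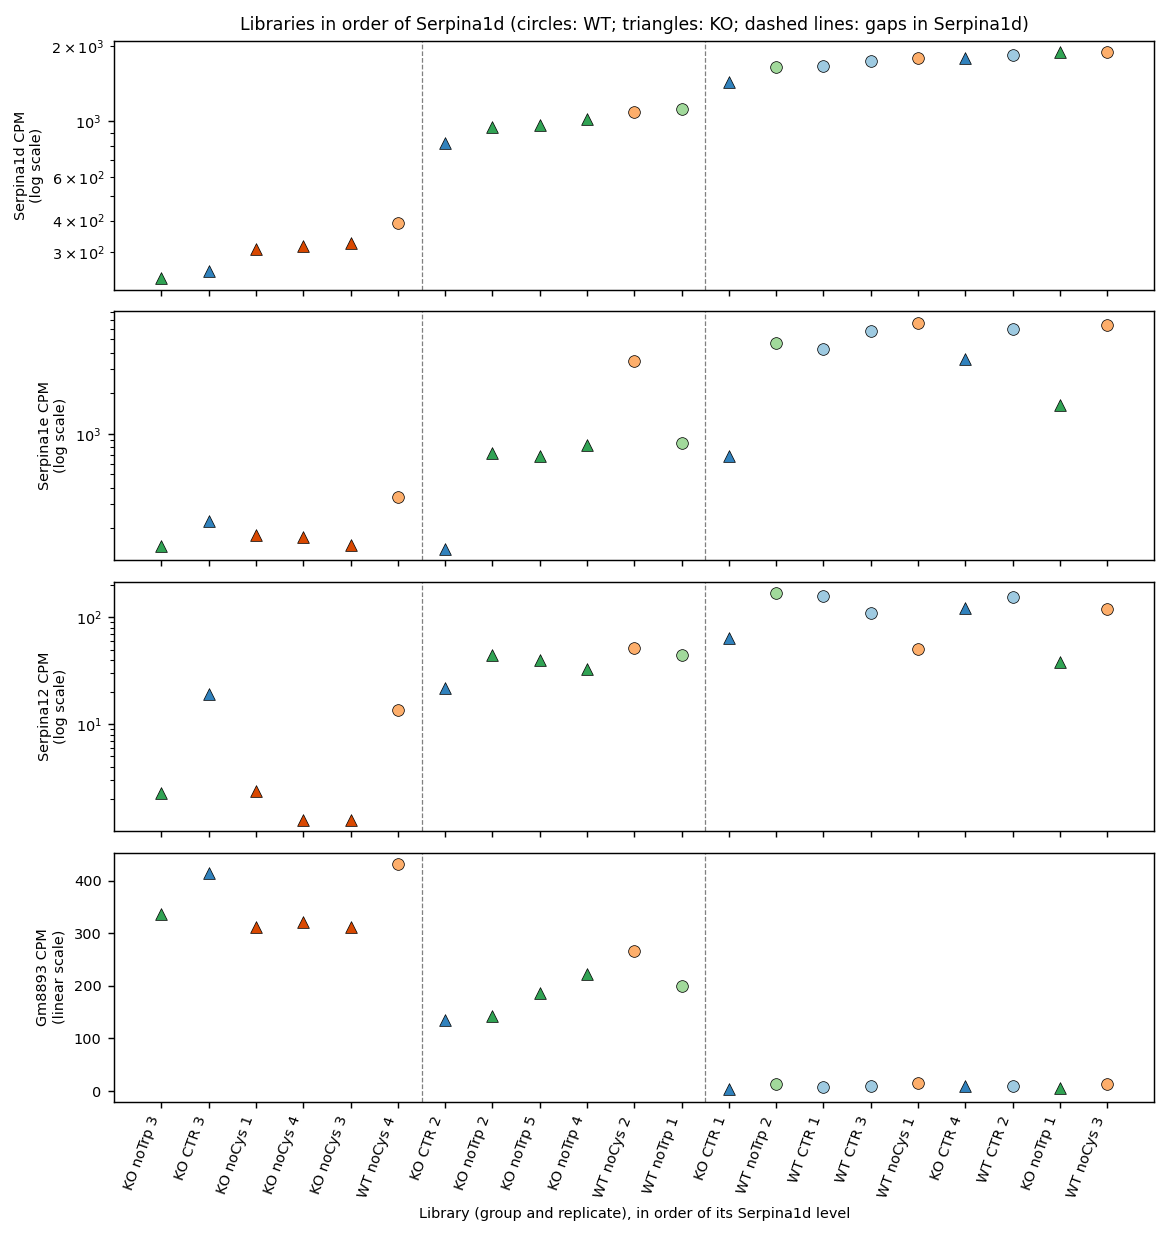
CPM of Serpina1d, Serpina1e and Serpina12 (log scales) and of the pseudogene Gm8893 (linear scale) in the 21 livers, ordered by Serpina1d; circles are WT, triangles KO, with blue for CTR, orange for noCys and green for noTrp, and dashed lines mark the steps in Serpina1d. Gm8893 is 3.50 to 15.5 CPM in the 9 livers on the right and 136 to 431 CPM in the other 12, and Serpina12 is lowest in the 3 KO noCys livers and KO noTrp replicate 3.

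Serpina12, the vaspin gene, showed the largest difference of the 10 genes between KO and WT livers without cysteine. Its mRNA was 2.37, 1.29 and 1.29 CPM in the 3 KO noCys livers, from counts of 21, 27 and 20 reads. In WT noCys it was 50.2, 51.8, 119 and 13.6 CPM, and in KO CTR 64.6, 22.0, 19.3 and 123 CPM. Every KO noCys liver thus lay below every WT noCys and KO CTR liver, while the latter groups spread over 8.79-fold and 6.38-fold, respectively. In KO noTrp, the test of another amino acid in the same genotype, Serpina12 was 38.2, 44.8, 2.29, 32.8 and 40.0 CPM. The exception, replicate 3, fell inside the KO noCys range, so these groups overlapped. WT CTR livers had 157, 154 and 109 CPM and WT noTrp livers 44.5 and 167 CPM.

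By group mean, Serpina12 ran from 140 ± 26.8 CPM in WT CTR (SD, n = 3) through 106 ± 86.7 in WT noTrp (n = 2), 58.7 ± 44.0 in WT noCys (n = 4), 57.3 ± 48.6 in KO CTR (n = 4) and 31.6 ± 16.9 in KO noTrp (n = 5) to 1.65 ± 0.625 in KO noCys (n = 3). Each group overlapped with its neighbours in this order. The fitted log2 fold change (edgeR, with its standard error) was -5.23 ± 1.01 for KO noCys against WT noCys, a 37.6-fold lower level. It was -5.20 ± 1.01 against KO CTR and -4.35 ± 0.99 against KO noTrp. Of the 3 other livers with the lowest Serpina1d, WT noCys replicate 4 had 13.6 and KO CTR replicate 3 had 19.3 CPM of Serpina12, the lowest of their groups and above KO noCys, and KO noTrp replicate 3 had 2.29 CPM. With 1 liver left out at a time, the difference from WT noCys ran from -5.57 without WT noCys replicate 4 to -4.62 without replicate 3, the liver with 119 CPM. That from KO CTR ran from -5.48 without KO CTR replicate 3 to -4.52 without replicate 4, and that from KO noTrp from -4.65 without KO noTrp replicate 3 to -4.18 without KO noCys replicate 3.

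Serpina4-ps1 had the widest range of the 10, 408-fold between the lowest and the highest liver. In KO noCys it was 0.677, 0.619 and 1.67 CPM, from 6, 13 and 26 reads. KO CTR livers had 129.7, 39.0, 30.4 and 31.3 CPM, WT noCys livers 7.76, 24.1, 36.8 and 38.0 CPM, and KO noTrp livers 14.6, 12.7, 6.29, 25.5 and 12.7 CPM. All of these exceeded the highest KO noCys liver. The low values were not particular to KO noCys, since WT noTrp replicate 1 had 1.48 CPM while replicate 2 had 98.9 CPM, and WT CTR livers had 253, 23.7 and 138 CPM. The log2 fold change of KO noCys was -5.84 ± 1.22 against KO CTR, -4.73 ± 1.21 against WT noCys and -3.82 ± 1.20 against KO noTrp. Single livers moved these values, to -5.07 without KO CTR replicate 1 in the first comparison, and to -6.48, -5.36 and -4.45, respectively, without KO noCys replicate 4. In contrast to Serpina12, the liver of the lowest Serpina1d range in WT noCys was not low in Serpina4-ps1 for its group (38.0 CPM, the highest of 4). That in KO noTrp was the lowest of its group (6.29 CPM). That in KO CTR had 30.4 CPM, hardly below the 31.3 CPM of replicate 4, a liver of the highest Serpina1d range.

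**Figure D2:**
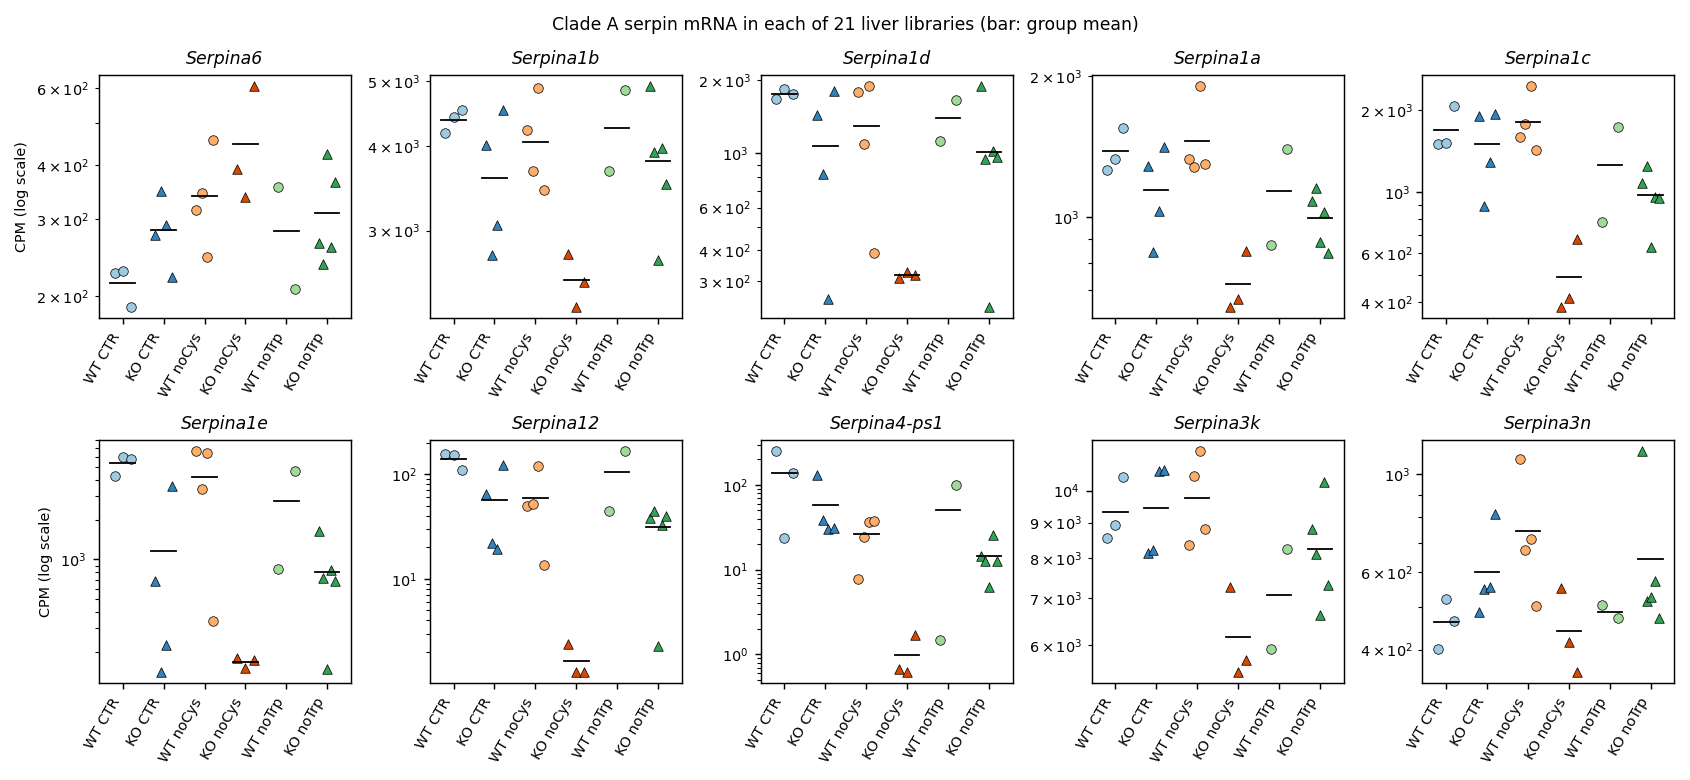
CPM (log scale) of the 10 clade A serpin genes in each liver by genotype and diet, with a bar at the group mean; circles are WT and triangles KO. Serpina12 and Serpina4-ps1 are at 1.29 to 2.37 and 0.619 to 1.67 CPM in the 3 KO noCys livers, whereas Serpina6 is 338 to 609 CPM there, the highest group mean of the 6.

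The 5 α1-antitrypsin copies did not move alike. Per kilobase of exon, and with reads assigned to the copies as deposited, the median level over the 21 livers was 1623 CPM per kb for Serpina1b, 947 for Serpina1c, 784 for Serpina1d, 630 for Serpina1a and 515 for Serpina1e. Serpina1e varied 47.3-fold between livers, Serpina1d 8.08-fold, Serpina1c 6.37-fold, Serpina1a 2.96-fold and Serpina1b 2.13-fold. These medians pool the groups, and the order of the copies was not the same in each. In WT CTR Serpina1e had the highest mean of the 5, 3311 CPM per kb against 1815 for Serpina1b, and in KO noCys the lowest, 103 against 1049.

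Serpina1e was 179, 149.8 and 172 CPM in KO noCys and 6645, 3438, 6374 and 342 CPM in WT noCys. KO CTR livers had 683, 140, 227 and 3583 CPM, so KO noCys lay within their range. KO noTrp livers had 1636, 723, 149, 832 and 686 CPM, and WT CTR livers 4268, 5980 and 5815 CPM. The highest of the 12 KO livers was KO CTR replicate 4, and it lay below every WT CTR liver. The log2 fold change was -4.65 ± 1.12 against WT noCys, -2.79 ± 1.02 against KO CTR and -2.27 ± 0.97 against KO noTrp. The KO CTR difference rested on KO CTR replicate 4, without which it was -1.08. The 4 lowest values outside KO noCys came from KO CTR replicate 2 and from the 3 livers of the lowest Serpina1d range.

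Serpina1d was 307, 325 and 317 CPM in KO noCys. Its log2 fold change was -2.03 ± 0.60 against WT noCys, -1.77 ± 0.59 against KO CTR and -1.68 ± 0.57 against KO noTrp. In the lowest livers of those groups Serpina1d was 392, 252 and 235 CPM, so KO noCys stood below WT noCys without overlap, by a margin of 392 to 325 CPM, and inside the range of the other groups.

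Serpina1c was lower in each KO noCys liver than in any WT noCys or KO CTR liver, also those of the lowest Serpina1d range. It was 384, 413 and 678 CPM in KO noCys against 1598, 1775, 2448 and 1422 in WT noCys, and KO CTR livers had 1896, 897, 1289 and 1924 CPM. In KO noTrp it was 1087, 1249, 634, 963 and 955 CPM, which overlapped with KO noCys through replicate 3. The log2 fold change was -1.88 ± 0.31 against WT noCys, -1.61 ± 0.31 against KO CTR and -0.99 ± 0.29 against KO noTrp. The livers of the lowest Serpina1d range in WT noCys and KO CTR had 1422 and 1289 CPM of Serpina1c against the 678 CPM of the highest KO noCys liver.

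Serpina1a and Serpina1b, the steadier copies, were also lower. Serpina1a was 645 to 845 CPM in KO noCys and 1278 to 1909 in WT noCys, with -1.01 ± 0.20 on the log2 scale. Serpina1b was 2313 to 2770 CPM in KO noCys and 3452 to 4891 in WT noCys, with -0.68 ± 0.19. Neither pair of groups overlapped. Against KO CTR (843 to 1412 CPM of Serpina1a and 2757 to 4538 of Serpina1b) the differences were -0.67 ± 0.19 and -0.50 ± 0.19, and both genes overlapped between the groups. In the other 3 livers of the lowest Serpina1d range (WT noCys replicate 4, KO CTR replicate 3 and KO noTrp replicate 3), Serpina1b was 3452, 3060 and 2718 CPM, the first and the last being the lowest of their groups. Serpina1a was 1299, 1032 and 884 CPM in the same livers, none of them the lowest of its group.

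Reads of 61 bases cannot always be placed among such copies. The share of 61-base stretches found in no other gene's transcript was 23.4% for Serpina1c, 37.0% for Serpina1a, 55.3% for Serpina1d, 70.1% for Serpina1b and 73.1% for Serpina1e, against 89.7% for Serpina3k, 96.9% for Serpina3n and 100% for Serpina6, Serpina12 and Serpina4-ps1. Both strands of all other genes' transcripts were searched, so the shares also drop stretches shared with overlapping genes such as the antisense B430119L08Rik. They describe single reads and not read pairs. Transcripts of the copies were 74.6% to 94.3% identical. The levels of single copies are therefore uncertain, and the sum of the 5 was examined as well. The sum averaged 4230 ± 334 CPM in KO noCys, 12824 ± 4734 in WT noCys, 8473 ± 3629 in KO CTR and 7607 ± 2159 in KO noTrp. Its log2 fold change was -1.60 ± 0.34 against WT noCys, -1.002 ± 0.33 against KO CTR and -0.85 ± 0.32 against KO noTrp. The 3 livers outside KO noCys with the lowest Serpina1d had sums of 6906 (the lowest in WT noCys), 5860 (KO CTR) and 4619 CPM (the lowest in KO noTrp), against at most 4534 CPM in KO noCys. Serpina1b made up 55.6% to 64.6% of the sum in KO noCys and 28.9% to 32.5% in WT CTR, where Serpina1e made up 33.1% to 39.6% instead of 3.79% to 4.19%.

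Of the antichymotrypsin-like genes, Serpina3k had the highest level of the 10, a median of 4059 CPM per kb. It was 7259, 5487 and 5711 CPM in KO noCys against 8349 to 11408 in WT noCys and 8144 to 10719 in KO CTR, with no overlap in either case. The log2 fold change was -0.67 ± 0.17 against WT noCys and -0.62 ± 0.17 against KO CTR. Against KO noTrp it was -0.42 ± 0.17, with overlap and no call. Serpina3n was 356 to 553 CPM in KO noCys and 503 to 1082 in WT noCys, which overlapped, and of the 9 genes called in that comparison its log2 fold change (-0.75 ± 0.28) was the smallest relative to its SE. Against KO CTR and KO noTrp Serpina3n was -0.45 ± 0.28 and -0.55 ± 0.27, again with overlap and not called. In WT noCys replicate 4, KO CTR replicate 3 and KO noTrp replicate 3, Serpina3k was 8798, 10671 and 6631 CPM, the last inside the KO noCys range, and Serpina3n was 503, 556 and 526.4 CPM, the first the lowest of its group.

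Serpina6, the gene for corticosteroid-binding globulin, was alone among the 10 in having a higher fitted level in KO noCys than in each of the 3 groups compared. It was 393, 338 and 609 CPM there, against 246 to 457 in WT noCys, 221 to 349 in KO CTR and 237 to 425 in KO noTrp, and overlapped with each. The log2 fold change was 0.39 ± 0.24, 0.65 ± 0.24 and 0.52 ± 0.23, respectively, and none was called by edgeR with all libraries in. The difference from KO CTR was called by DESeq2 and limma-voom, with scaling by library totals, and by edgeR without KO CTR replicate 2. WT noCys replicate 4 (457 CPM) and KO noTrp replicate 3 (425 CPM), both of the lowest Serpina1d range, had the highest Serpina6 of their groups, whereas KO CTR replicate 3 had 292 CPM. Serpina10, the neighbour of Serpina6 at the edge of the cluster, was called higher in the KO of the same pair (0.34 ± 0.12), whereas every tested clade A gene of the cluster from Serpina1d to Serpina3n had a negative value, from -5.23 for Serpina12 to -0.14 for Serpina3m, with Serpina9 and Serpina11 among those not called.

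**Figure D3:**
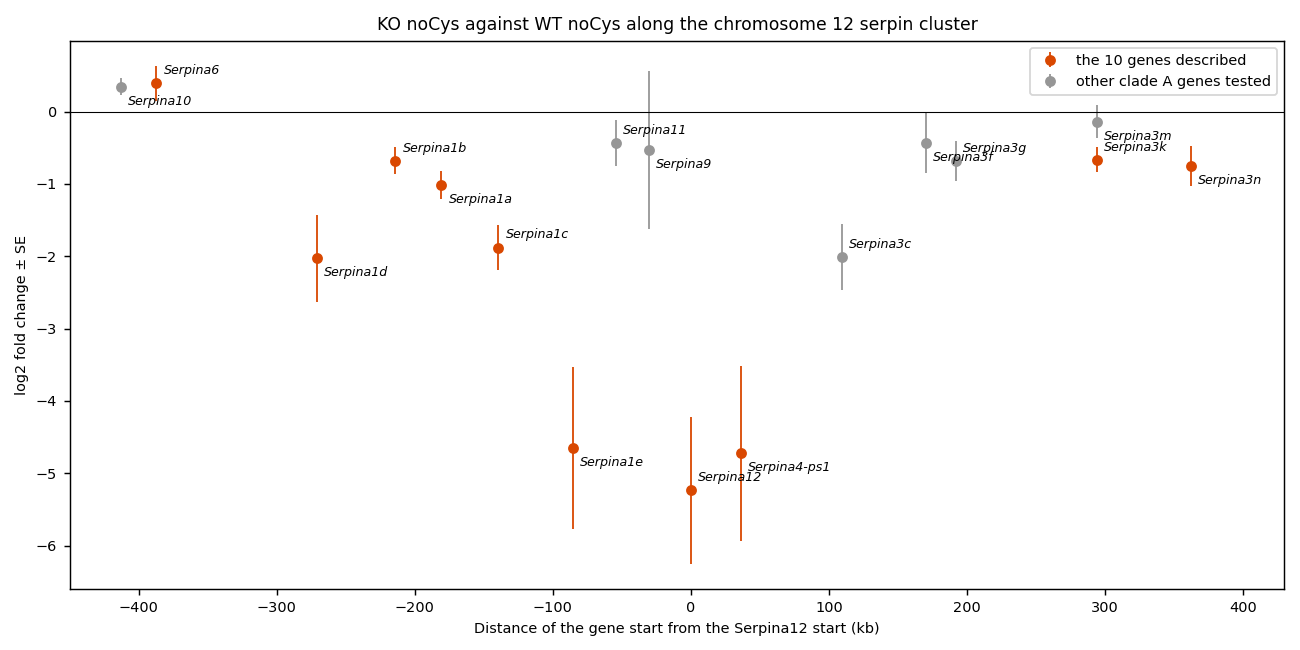
log2 fold change (± SE) of KO noCys against WT noCys for the clade A genes of the cluster that were tested, against the distance in kb of each gene start from the start of Serpina12. Starts are those of the GENCODE spans, and the RefSeq promoter of Serpina1b lies inside its span. Orange points are the 10 genes described and grey points other clade A genes. The 3 lowest values, -4.65 for Serpina1e, -5.23 for Serpina12 and -4.73 for Serpina4-ps1, lie at -85.5, 0 and 36.2 kb, with Serpina11 and Serpina9, both nearer 0, between Serpina1e and Serpina12.

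A gene was called where edgeR's adjusted p was under 0.05 over the 14370 genes tested, and all 10 genes passed the filter on low counts. Against WT noCys, 9 of the 10 were called lower in KO noCys and none higher. Of all genes tested 28.2% were called in this comparison, 13.4% lower and 14.8% higher, and the median log2 fold change was -1.45 over the 10 genes and -0.02 over all. Against KO CTR, 6 were called lower (Serpina1a, Serpina1c, Serpina1d, Serpina12, Serpina4-ps1 and Serpina3k), beside 20.2% of all genes called, 9.59% lower and 10.6% higher. Against KO noTrp, 4 were called lower (Serpina1b, Serpina1c, Serpina12 and Serpina4-ps1), beside 13.9% of all genes called, 6.75% lower and 7.17% higher. The medians over the 10 genes were -1.14 and -0.79. These counts follow from how the set was put together and say nothing further about it, and the comparisons share the KO noCys livers.

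Single libraries mattered to these counts. Without KO noCys replicate 3 they were 6, 3 and 0 against WT noCys, KO CTR and KO noTrp, respectively, and calls over all genes fell along with them, from 4055 to 2358, from 2906 to 1379 and from 2000 to 570. Serpina3n kept its call against WT noCys in 2 of the 7 fits that each left out 1 library, being lost without WT noCys replicate 1, 2 or 3 or KO noCys replicate 3 or 4. Against KO CTR, Serpina1d held its call in 2 and Serpina1a in 3 of 7 such fits. Against KO noTrp, Serpina4-ps1 held its call in 2 of 8 (without KO noTrp replicate 1 or 3) and Serpina1b in 3, and that of Serpina12 was lost without KO noCys replicate 3.

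Whether cysteine removal acted differently in the 2 genotypes was described by the interaction, the log2 change from CTR to noCys in KO minus that in WT. All 10 values were negative, from -3.93 ± 1.23 for Serpina12 and -3.47 ± 1.48 for Serpina4-ps1 to -0.02 ± 0.35 for Serpina6. Leaving out 1 library moved Serpina12 to -3.25 (without KO CTR replicate 4) and Serpina4-ps1 to -4.26 (without WT CTR replicate 1) or -2.69 (without KO CTR replicate 1). Only Serpina1c (-1.71 ± 0.43) was called, beside 7.44% of all genes, 3.88% lower and 3.56% higher. For Serpina1c the change was 0.10 ± 0.30 in WT and -1.61 ± 0.31 in KO. Its call was lost without WT CTR replicate 1 or 2 or KO noCys replicate 3. Serpina12 was called when KO CTR replicate 2, KO CTR replicate 3 or WT noCys replicate 4 was left out.

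**Figure D4:**
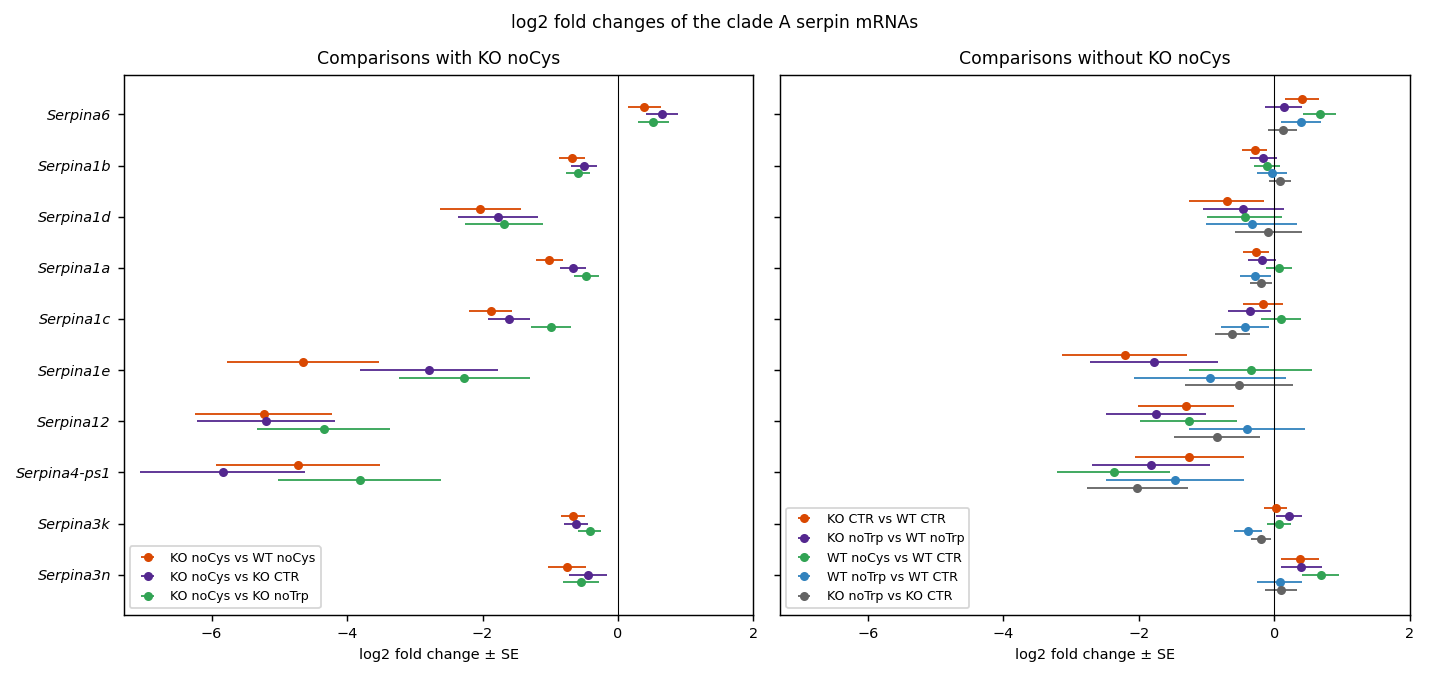
log2 fold change (± SE, edgeR) of each of the 10 genes in the 3 comparisons of KO noCys with another group (left) and in the 5 comparisons without KO noCys (right). On the left, Serpina12 lies between -5.23 and -4.35 and Serpina6 between 0.39 and 0.65; on the right, no value was called.

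The comparisons without KO noCys asked whether genotype or diet alone was accompanied by a change. In none of them was any of the 10 genes called by edgeR, DESeq2 or limma-voom with all libraries in. KO CTR against WT CTR had 0.320% of all genes called, 0.0696% higher and 0.251% lower, so few calls of any kind were made. The 46 calls behind this share became 9 without KO CTR replicate 2, 10 without WT CTR replicate 3 and 126 by DESeq2. The lowest value was that of Serpina1e at -2.21 ± 0.92 (edgeR adjusted p = 0.428), with 140 to 3583 CPM in KO CTR below 4268 to 5980 CPM in WT CTR without overlap. It was the 1 gene of the 10 with an unadjusted p under 0.05. Without KO CTR replicate 4 the value was -3.93, and that of Serpina12 was -1.99. With all livers Serpina12 was -1.30 ± 0.71 (edgeR adjusted p = 0.582) and Serpina1d -0.70 ± 0.56, both with overlapping groups, and the summed α1-antitrypsin copies were at -0.78 ± 0.32 (edgeR adjusted p = 0.409).

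KO noTrp against WT noTrp, with 2 WT libraries, had 0.195% of all genes called, 0.0696% higher and 0.125% lower. The 28 calls behind this share became 6 by limma-voom and 123 by DESeq2. Serpina12 was -1.75 ± 0.74 (edgeR adjusted p = 0.483) and Serpina4-ps1 -1.82 ± 0.87 (edgeR adjusted p = 0.559), the 2 genes with an unadjusted p under 0.05. The WT noTrp livers differed so much from each other that Serpina4-ps1 stood at -2.81 without replicate 1 and at 3.25 without replicate 2. Serpina12 stood at -2.41 and -0.50 in those fits. The direction of Serpina4-ps1 in this comparison was thus set by which WT liver was kept.

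WT noCys against WT CTR had 0.661% of all genes called, 0.390% higher and 0.271% lower. These were 95 genes, and 1 (without WT CTR replicate 3) to 53 (without WT CTR replicate 2) were called when 1 library was left out. Serpina4-ps1 was -2.37 ± 0.83 (edgeR adjusted p = 0.190), Serpina6 0.67 ± 0.25 (edgeR adjusted p = 0.222) and Serpina3n 0.68 ± 0.28 (edgeR adjusted p = 0.272), the 3 genes with an unadjusted p under 0.05. For Serpina6 the groups did not overlap, with 246 to 457 CPM in WT noCys and 189 to 228 in WT CTR. Serpina12 was -1.27 ± 0.71 (edgeR adjusted p = 0.443). Single livers carried part of these values: without WT CTR replicate 1 Serpina4-ps1 was -1.60, and without WT noCys replicate 3 Serpina12 was -1.89. The α1-antitrypsin copies lay between -0.44 ± 0.56 for Serpina1d and 0.10 ± 0.30 for Serpina1c.

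WT noTrp against WT CTR had 3.19% of all genes called, 1.70% higher and 1.50% lower, and no gene of the 10 had an unadjusted p under 0.05. The 459 calls behind this share became 99 without WT noTrp replicate 1, 728 without replicate 2, 32 by limma-voom and 3 with the groups compared alone. The lowest values were -1.46 ± 1.02 for Serpina4-ps1 and -0.95 ± 1.13 for Serpina1e. Both rested on which of the WT noTrp livers was kept. With replicate 1 alone, Serpina4-ps1 was -6.53 ± 1.54 (edgeR adjusted p = 0.0198), and with replicate 2 alone it was -0.47 ± 0.96 (edgeR adjusted p = 0.867), in fits where a lone liver is taken to vary as the other groups do. Serpina1e was -2.65 and -0.19 in those fits. KO noTrp against KO CTR had 1.87% of all genes called, 0.779% higher and 1.09% lower. The 269 calls behind this share became 105 without KO CTR replicate 1, 447 without KO CTR replicate 2 and 610 by limma-voom. Serpina4-ps1 was -2.02 ± 0.75 (edgeR adjusted p = 0.167), with 6.29 to 25.5 CPM in KO noTrp below 30.4 to 129.7 in KO CTR, and Serpina1c was -0.62 ± 0.26 (edgeR adjusted p = 0.223). Those 2 had an unadjusted p under 0.05, whereas Serpina12 was -0.85 ± 0.64 (edgeR adjusted p = 0.522) with an interval of ± 2 SE from -2.12 to 0.42. A difference of several-fold can go undetected at that width. Without KO CTR replicate 1 Serpina4-ps1 was -1.25 (edgeR adjusted p = 0.505), and without KO CTR replicate 4 Serpina12 was -0.16 (edgeR adjusted p = 0.935).

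Other members of the family and of the processes the serpins serve were counted in the same fit. For KO noCys against WT noCys, their counts are to be read beside the 28.2% of all genes called, 13.4% lower and 14.8% higher. Of 17 further clade A genes, 9 were tested and 2 were called in that comparison, Serpina10 higher and Serpina3c lower (-2.01 ± 0.46, a gene below 3 CPM on average in both groups), a share near that of all genes. Serpina3c was also lower in KO noCys than in KO CTR (-1.44 ± 0.46), and Serpina3g was lower than in KO noTrp (-1.24 ± 0.26). Of 12 tested serpins of other clades, 6 were called lower and none higher for KO noCys against WT noCys, beside 13.4% of all genes lower. Among them were Serpinb1a, an intracellular inhibitor of neutrophil proteases (-3.14 ± 0.42), Serpine2 (-1.84 ± 0.60), Serpinb9 (-1.34 ± 0.21), Serpinf2, encoding α2-antiplasmin (-0.56 ± 0.14), and Serping1, encoding C1 inhibitor (-0.55 ± 0.11). Serpinb1a was also lower in KO noCys than in KO CTR (-3.90 ± 0.42), and it was lower without tryptophan than on the control diet in WT (-1.57 ± 0.41) and in KO (-1.57 ± 0.28). The WT call was lost whichever library of that comparison was left out. Antithrombin, encoded by Serpinc1, was among the 6 genes not called.

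Among 22 acute-phase genes, the class to which Serpina3n belongs, 12 were called lower and 2 higher when KO noCys was compared with WT noCys, where 28.2% of all genes were called. The serum amyloid paralogs Saa2 (-7.60 ± 1.497) and Saa1 (-5.90 ± 1.28) had the largest falls, while Hamp, encoding hepcidin (1.92 ± 0.55), and Apcs, encoding serum amyloid P (1.83 ± 0.37), rose. Against KO CTR 7 were lower and 2 higher, beside 20.2% of all genes called, and against KO noTrp 6 were lower and 1 higher, beside 13.9%. Without cysteine, WT livers had higher Orm2 (4.17 ± 0.82), Hpx (1.32 ± 0.28), Orm1 (1.29 ± 0.27) and Itih4 (1.08 ± 0.25) than WT CTR, 4 of the 22 genes, beside 0.390% of all genes higher in that comparison. Leaving out 1 library left at most 3 acute-phase genes called there, and none without any 1 of the WT CTR livers or without WT noCys replicate 1 or 2. Serping1 (0.51 ± 0.11) was the serpin outside clade A called higher there, and no such serpin was called in 6 of the 7 fits without 1 library. Without tryptophan, Socs3, a feedback inhibitor of cytokine signalling, was higher in WT than on the control diet (2.37 ± 0.33) and lower in KO than in WT (-1.75 ± 0.28), a call lost without WT noTrp replicate 1.

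Of 13 tested genes of glucocorticoid action, which corticosteroid-binding globulin serves, 7 were called lower and none higher for KO noCys against WT noCys, beside 13.4% of all genes lower. The lowest were Dusp1 (-1.82 ± 0.43) and Tsc22d3 (-1.09 ± 0.32), both induced by glucocorticoids, and the list included the receptor gene Nr3c1 (-0.45 ± 0.11) and Hsd11b1 (-0.76 ± 0.15), whose product regenerates active corticosteroid. In WT livers Dusp1 (2.28 ± 0.44) and Fkbp5 (1.46 ± 0.30) were higher without cysteine than on the control diet, and likewise without tryptophan (2.52 ± 0.49 and 1.56 ± 0.34). Without cysteine, no gene of the list was called in 6 of the 7 fits that left out 1 library, and 1 was without WT noCys replicate 1. Without tryptophan, none was called without WT noTrp replicate 1, by limma-voom or with the groups compared alone. Against KO CTR, KO noCys had Sgk1 higher (1.30 ± 0.43) and Srd5a1 (-1.05 ± 0.30) and Hsd11b1 (-0.43 ± 0.15) lower.

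Of 18 regulators of hepatocyte genes, 4 were called lower and 1 higher for KO noCys against WT noCys, about the share of all genes called there (28.2%), so the count says nothing particular to the list. Ghr, the growth hormone receptor gene (-1.17 ± 0.13), and Il6ra, the interleukin-6 receptor gene (-0.89 ± 0.28), were lowest, and Xbp1 was higher (0.76 ± 0.20). Ghr was lower in KO noCys than in KO CTR (-1.12 ± 0.13) and KO noTrp (-0.87 ± 0.12) too. Onecut1, a hepatocyte transcription factor gene, was lower in KO noCys than in KO CTR (-1.95 ± 0.54). In KO CTR against WT CTR no gene of the 5 lists was called. The lists were drawn up with earlier results of these data known.

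Genes whose pattern over the 21 livers was most like that of Serpina12 were sought among 9177 genes averaging over 2 log2 CPM. The 5 with the highest Pearson r of log2 CPM were Serpina1b (r = 0.90, Spearman rho = 0.82), F2r, the thrombin receptor gene (0.90 and 0.77), Serpina1d (0.89 and 0.80), Serpina1c (0.85 and 0.81) and St3gal3, a sialyltransferase gene (0.85 and 0.85). The 3 most negative were Zfp661 (-0.85 and -0.80), Emc1 (-0.85 and -0.80) and Ftl1, encoding ferritin light chain (-0.85 and -0.70). Over the 18 livers outside KO noCys, r was 0.81 for Serpina1b, 0.73 for F2r and 0.86 for Serpina1d, and -0.57 for Ftl1. The ranking included the KO noCys livers, whose low values chose Serpina1b, Serpina1c and Serpina1d as well as Serpina12.

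For Serpina4-ps1 the 5 most alike were Ces3b, a carboxylesterase gene (r = 0.90, Spearman rho = 0.79), Col27a1 (0.90 and 0.86), Selenbp2 (0.89 and 0.73), Ifitm3 (0.89 and 0.76) and Mettl26 (0.89 and 0.78), none of them on chromosome 12. Ctsl, encoding the lysosomal protease cathepsin L (-0.94 and -0.94), Cct4 (-0.90 and -0.86) and Riok3 (-0.89 and -0.78) were the most negative. Ctsl averaged 1707 CPM in KO noCys and 648 CPM in WT CTR, and its r was -0.88 over the 18 other livers. These coefficients were selected for their size over libraries that share groups and normalization, and carry no test.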

How the data were processed

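Livers of 21 mice were profiled by poly(A) RNA-seq with 2 × 61 cycles. The deposited table holds raw counts of reads per gene, which the authors made by aligning reads to GRCm38 with HISAT2 2.1.0 and counting with HTSeq 0.11.0, as the submitters' processing notes give it; annotation release, strand setting and the treatment of multi-mapping reads are not given in the sources used here. Counts in 1 further column, whose name fits none of the labels, were left aside. Its name falls in sequence between those of KO noCys replicates 1 and 3, and what it holds was not established. The authors tested with DESeq2. Of 46078 identifiers, 45143 matched GENCODE M21 (the others held 0.0715% of counts) and 26504 had a count. No 2 libraries were identical. Samples were grouped by genotype and diet from their labels; the labels call replicates biological and the study's methods count animals per condition, so they were taken as separate mice.

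Counts were scaled by TMM (factors 0.883 to 1.14), filtered with filterByExpr (minimum count 10, total 15) to 14370 genes and fitted in edgeR 4.0.16 (R 4.3.3) by the two-sided quasi-likelihood test over all 6 groups, with Benjamini-Hochberg adjustment over all genes tested and calls at adjusted p under 0.05. The standard error is the absolute log2 fold change divided by the square root of F. CPM are TMM-scaled; log2 CPM used a prior count of 2. The script was tested on simulated data. DESeq2 1.42.0, limma 3.58.1 (voom with quality weights), other scalings, no filter, a replicate block, fits of the compared groups alone, leaving out each library and the 5 Serpina1 rows summed were the alternatives. Promoters were RefSeq's (GRCm38.p6). Depths of 8889951 to 27230852 counts gave the scarcest of the 10 genes 6 reads in 1 library.

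The 10 genes, the gene lists and the tests were chosen with earlier results of these data known. From each list, the called genes with the 2 largest rises and 2 largest falls per comparison are named, with others where useful. Pattern genes are the 5 highest and 3 lowest Pearson r with Serpina12 or Serpina4-ps1 among named genes averaging over 2 log2 CPM. Gm8893, Serpinc1 and the limits between Serpina1d ranges were chosen after their values were seen. Some called genes of the lists are not reported here.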

Additional observations from a re-analysis of the deposited data

Results flagged for a closer look

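In 30 combinations of gene and group with 4 or 5 livers, a liver standing apart from the others (Dixon's test at the 95% level, on CPM) was found in 5. For independent, normally distributed values chance gives about 1 in 20. Correlated genes measured in the same livers do not meet this, so the count is only a description. Serpina12 in KO noTrp replicate 3 was 2.29 CPM beside 32.8 to 44.8 CPM in the other 4 livers of the group; the same liver had the lowest Serpina1d of all 21. Serpina1e in KO CTR replicate 4 was 3583 CPM beside 140 to 683 CPM in the other 3. Serpina4-ps1 in KO CTR replicate 1 was 129.7 CPM beside 30.4 to 39.0 CPM. Serpina1a in WT noCys replicate 3 was 1909 CPM beside 1278 to 1333 CPM. Serpina3n, the acute-phase gene, was 1131 CPM in KO noTrp replicate 1 beside 472 to 573 CPM. What sets these livers apart was not tested.

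For Serpina1c the change from CTR to noCys in KO minus that in WT was -1.71 ± 0.43 on the log2 scale, a contrast of group means in the fit over all groups. It stands as a description, since the gene was chosen by its low KO noCys values. Its call was lost without WT CTR replicate 1 or 2 or KO noCys replicate 3. All KO noCys livers and no WT CTR liver lay in the lowest Serpina1d range, and only 23.4% of the gene's 61-base stretches were unique.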

How the results depend on the processing

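No called log2 fold change of the 10 genes turned its direction under any alternative run. Calls over all genes moved by more than 1.5 times in several alternatives, for instance from 1069 to 2179 by limma-voom for the interaction. Among the 10 genes, counts of calls were within 1.5 times of the reported ones except as follows. For the genotype by cysteine interaction the 1 call became 3 without the filter or with the groups compared alone and 4 by limma-voom or DESeq2. With the 5 Serpina1 rows summed, the counts were 5 of 6 rows for KO noCys against WT noCys, 2 for KO noCys against KO noTrp and 0 for the interaction, partly because fewer rows were counted. Replicate numbers did not pair the livers: deviations from the group means had a median r of -0.035 over 41 pairs with the same number (-0.355 to 0.353) and 0.012 over 140 other pairs. The fit with the replicate block left 1 call for KO noCys against KO noTrp in place of 4 and 5 for KO noCys against KO CTR in place of 6. Leaving out 1 library at a time gave 6 to 9 calls for KO noCys against WT noCys, 3 to 9 against KO CTR (3 without KO noCys replicate 3), 0 to 5 against KO noTrp (0 without KO noCys replicate 3, 1 without KO noTrp replicate 2, 2 without KO noCys replicate 1 or 4 or KO noTrp replicate 4), 0 to 2 for the interaction (0 without WT CTR replicate 1 or 2 or KO noCys replicate 3; 2 without KO CTR replicate 2 or 3, WT noCys replicate 4 or KO noCys replicate 1) and 0 to 1 for WT noTrp against WT CTR (1, Serpina4-ps1, without WT noTrp replicate 2). Calls over all genes moved too, without KO noCys replicate 3 from 2000 to 570 against KO noTrp and from 1069 to 430 for the interaction. Against KO noTrp they were 1197 without KO noCys replicate 4, 2124 without KO noCys replicate 1, 1693 without KO noTrp replicate 2 and 1863 without KO noTrp replicate 4. For the interaction they were 640 without WT CTR replicate 1 and 697 without replicate 2. The cause was not tested. Scaling by library totals moved the median of all genes in KO noCys against WT noCys from -0.02 to 0.20 and the share of calls that were higher from 52.5% to 80.0%; the share moved from 52.6% to 73.7% against KO CTR, 51.5% to 68.3% against KO noTrp, 47.9% to 72.6% for the interaction, 53.2% to 78.0% for WT noTrp against WT CTR, 41.6% to 55.5% for KO noTrp against KO CTR and 21.7% to 36.6% for KO CTR against WT CTR.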
